A study of Homo sapiens with 9 samples.

Results

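The cytosolic ribosomal protein genes encode the proteins of the large and the small ribosomal subunit. They were taken as the protein-coding genes whose symbol is RPSA, RPLP0 to RPLP2, or RPL or RPS followed by a number and, where present, A, X or L. A current reference holds 81 such genes, 49 of the large and 32 of the small subunit. Of these, 64 had an array row that named that gene alone, among 17958 genes in all, and they are the members described here: 39 of the large and 25 of the small subunit. The other 17 had no row of their own, 10 of the large and 7 of the small subunit, and have no value among the members. No filter on low values was applied, so all 64 members entered every fit.

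The cells were HCT 116, a human colorectal cancer cell line, and 3 groups of 3 arrays were compared. KL-FL cells received a vector carrying full-length klotho of the mouse, KL1 cells a vector carrying its KL1 subdomain, and control cells the empty vector pcDNA3. Klotho spans the cell membrane and serves FGF23, a hormone of phosphate balance, as a co-receptor. All groups share the cell line, transient transfection with JetPEI or polyethylenimine (which sample received which is not given), and RNA extraction at 24 hours. Each array was made from 100 ng of total RNA, so a value is a gene's share of that RNA, and a change in the total RNA of a cell would not show. In such bulk samples, fewer cells with a transcript and less of the transcript per cell cannot be told apart. No label ties the replicates to separate cultures, and the p-values therefore reflect only how far these arrays spread, perhaps for technical reasons.

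A ribosome reads mRNA on its small subunit and joins amino acids on its large subunit. Its proteins are made in matched amounts, carried to the nucleolus and built onto ribosomal RNA, and protein left unassembled is degraded. Most of their mRNAs begin with a C followed by a run of pyrimidines, the terminal oligopyrimidine (TOP) tract, through which the kinase mTORC1 and the binding protein LARP1 set how much of the mRNA is translated. In colorectal cancer cells a surplus of free RPL5 and RPL11 is known to bind MDM2 and stabilise p53.

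In these arrays 0 of the 64 ribosomal protein genes passed the limma test over all genes in KL-FL against control, in KL1 against control or in KL-FL against KL1. Small values below 0 were common in both subunits. In KL-FL cells 45 of 64 (70.3%) averaged lower than in control, against 49.1% of genes above the 50th percentile of mean level. In KL1 cells 40 of 64 (62.5%) averaged lower than in control, against 59.6% of genes above that percentile. Most differences were small, with 55 of 64 within 0.1 of 0 on the log2 scale in KL-FL against control. The 3 KL-FL arrays differed among themselves far more than the groups did. All 25 small subunit genes read higher on KL-FL replicate 2 than on KL-FL replicate 3.

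The start-site sequences of members that the results turn on follow, from RefSeq on GRCh38.p14, each with 10 bases before the annotated start and 20 from the start on. Capitals mark a TOP tract, taken as a C at the annotated start followed by at least 4 bases that are C or T, read on the gene's own strand. RPL18 and RPS26 had every array of both klotho groups below every control array. The share of all genes that did so in both groups at once was not counted. RPL18 lies at chr19:48619159-48619188 on the minus strand and RPS26 at chr12:56041908-56041937 on the plus strand.
RPL18: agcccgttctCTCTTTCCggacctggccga
RPS26: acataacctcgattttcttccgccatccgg
The next 4 were among the most variable over the KL-FL arrays. They are RPL29 at chr3:51995876-51995905 (minus strand), RPS9 at chr19:54200848-54200877 (plus strand), RPS21 at chr20:62387093-62387122 (plus strand) and RPS10 at chr6:34426050-34426079 (minus strand). All 4 hold the tract, but RPS7, which is not shown and lacks it, had a wider KL-FL SD than RPS10 (0.198 against 0.186).
RPL29: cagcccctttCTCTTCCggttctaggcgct
RPS9: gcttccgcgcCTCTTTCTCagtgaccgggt
RPS21: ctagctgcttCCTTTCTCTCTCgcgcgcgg
RPS10: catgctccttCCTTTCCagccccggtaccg
RPL41, in its brightest row, was the steadiest member over replicates. It lies at chr12:56116623-56116652 on the plus strand.
RPL41: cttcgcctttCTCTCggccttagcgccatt
RPS27 and its paralog RPS27L show a pair of close relatives of which 1 holds the tract. RPS27 lies at chr1:153990752-153990781 (plus strand) and RPS27L at chr15:63157458-63157487 (minus strand).
RPS27: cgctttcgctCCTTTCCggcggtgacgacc
RPS27L: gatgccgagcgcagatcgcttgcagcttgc

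Of the 64 members, 54 had an annotated start in the sequence table, and 38 of these (70.4%) held the tract at 1 or more listed starts. By starts, that was 38 of 63 (60.3%), against 1008 of 22198 starts (4.54%) of all protein-coding genes. Both subunits held it in similar shares of genes, 23 of 32 (71.9%) for the large and 15 of 22 (68.2%) for the small, against 6 of 69 (8.70%) for the genes of mitochondrial ribosomal proteins. The 16 members without it were RPL3, RPL4, RPL6, RPL9, RPL10A, RPL10L, RPL17, RPL19, RPL27, RPS4X, RPS7, RPS15, RPS26, RPS27L, RPS28 and RPS29. For some of them a pyrimidine run lies beside the annotated start, as in RPL10A, or across it, as at 1 start of RPL19, and such a match says nothing of the start used in these cells. The array values of genes with and without the tract were close. In KL-FL against control, the median log2 difference was -0.025 over the 38 genes with it and -0.037 over the 16 without it. In KL1 against control the medians were -0.017 and -0.035.

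The 9 arrays were close to one another, with array medians over all genes from 5.38 to 5.42 on the log2 scale. KL-FL replicate 3 stood furthest apart, its correlations with the remaining 8 having a median of 0.997, followed by KL1 replicate 2 at 0.998. All 8 epithelial markers checked were measured, with KRT8, KRT18 and EPCAM bright, VIL1 and KRT20 low, and the marker lists of fibroblast, endothelial and leukocyte cells at the dim end of the scale. Their median log2 levels were 3.62 to 3.66 over arrays for the fibroblast and endothelial list and 3.10 to 3.29 for the leukocyte list. The probes for KL were designed on the human gene, so they check the mouse vectors weakly. KL read 3.22, 3.21 and 3.13 in KL-FL, 3.27, 3.18 and 3.13 in KL1, and 3.05, 3.06 and 3.03 in control.

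Against control, the median log2 difference of KL-FL cells was -0.027 over the 39 large subunit genes and -0.021 over the 25 small subunit genes, where the median over all genes was 0.0099. Of the large subunit genes 28 averaged lower and of the small subunit genes 17, which makes 45 of 64 (70.3%), against 42.7% of all genes. Among genes above the 50th percentile of mean level, which hold 61 of the 64 members, 49.1% averaged lower. The members' differences ran from -0.29 for RPL13 to 0.057 for RPL22. With limma, 0 of 64 passed an adjusted p of 0.05, where 0.00557% of all genes did, and the smallest adjusted p among the members was 0.688. At an unadjusted p under 0.05, 1 member averaged lower (RPL18) and 0 averaged higher, where 2.28% of all genes were lower and 4.88% were higher. The lower count was 10 (15.6%) without KL-FL replicate 2, against 4.82% of all genes, and 0 without KL-FL replicate 3, against 1.66%. It was 3 (4.69%) without control replicate 1, against 1.92% of all genes, and 0 without control replicate 2, against 1.5%. Without KL1 replicate 1, 2 or 3 it was 2 (3.12%), against 2.06%, 2.37% and 1.95% of all genes. All 3 KL-FL arrays lay below all 3 control arrays for 4 members (6.25%), RPL18, RPL26, RPL36 and RPS26, against 3.25% of all genes. They lay above for 0 members, against 7.13% of all genes.

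For KL1 cells against control the median log2 difference was -0.018 over the large and -0.012 over the small subunit genes, beside 0.0026 over all genes. Of 39 large subunit genes 25 averaged lower and of 25 small subunit genes 15, which makes 40 of 64 (62.5%), against 47.8% of all genes. Among genes above the 50th percentile of mean level, which hold 61 of the 64 members, 59.6% averaged lower. The median over those genes was -0.014. That set was not matched to the members in mean level, and most members lie far above its lower bound. After quantile normalization of the arrays 33 of 64 averaged lower, against 50% of all genes. The differences ran from -0.13 for RPS26 to 0.12 for RPL19. With limma, 0 of 64 passed, where 0.00557% of all genes did, and the smallest adjusted p was 0.927. At an unadjusted p under 0.05, 1 member averaged lower (RPS26) and 0 higher, against 2.11% and 2.99% of all genes. When 1 array was left out, the lower count ran from 0 to 3 (4.69%). The 0 came without KL1 replicate 2, against 2.41% of all genes, and the 3 without control replicate 1, against 1.59%. The KL1 arrays lay below all control arrays for 3 members (4.69%), RPL18, RPS26 and RPS6, against 4.34% of all genes, and above for 0, against 5.13%. KL-FL and KL1 were each set against the same 3 control arrays, so the 2 sets of differences are not independent.

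**Figure D1:**
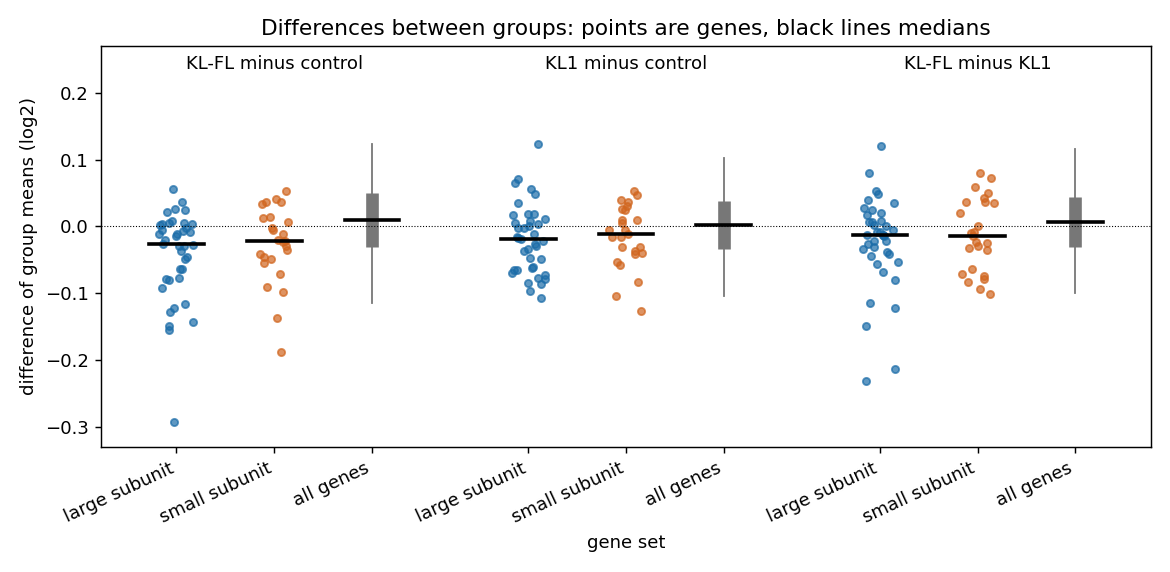
Log2 difference of group means for each ribosomal protein gene, 1 point a gene, with large and small subunit genes apart, in panels for KL-FL and for KL1, each less control, and for KL-FL less KL1. The bars for all genes span the 5th to 95th percentile and the quartiles, and the medians of both subunits lie slightly below 0, at -0.027 and -0.021 in KL-FL minus control.

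Large and small subunit genes were compared on each array by their median deviation from each gene's own mean over the 9 arrays. For the large subunit it was -0.017, 0.037 and -0.050 on KL-FL replicates 1 to 3, -0.0047, 0.0060 and -0.0083 on KL1, and -0.015, 0.031 and 0.016 on control arrays. For the small subunit it was -0.0084, 0.081 and -0.099 on KL-FL, 0.0032, 0.012 and 0.0071 on KL1, and -0.0098, 0.0072 and 0.017 on control arrays. KL-FL replicate 2 was the highest and KL-FL replicate 3 the lowest of the 9 arrays for both subunits, so that the KL-FL values span those of the other groups. As group values, the small subunit stood at -0.0086 ± 0.090 in KL-FL, 0.0073 ± 0.0042 in KL1 and 0.0046 ± 0.013 in control (mean ± SD of the array medians, n = 3 each). The large subunit stood at -0.0098 ± 0.043 in KL-FL, -0.0023 ± 0.0074 in KL1 and 0.011 ± 0.023 in control (SD, n = 3 each). For both subunits the group means lay closer together than the KL-FL arrays did.

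The balance of the 2 subunits differed between the KL-FL arrays. The large minus small subunit median was -0.0082, -0.045 and 0.049 on KL-FL replicates 1 to 3. By group it was -0.0012 ± 0.047 in KL-FL, -0.0097 ± 0.0051 in KL1 and 0.0061 ± 0.016 in control (SD, n = 3 each). The differences between groups in this balance were smaller than the spread of the KL-FL arrays.

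**Figure D2:**
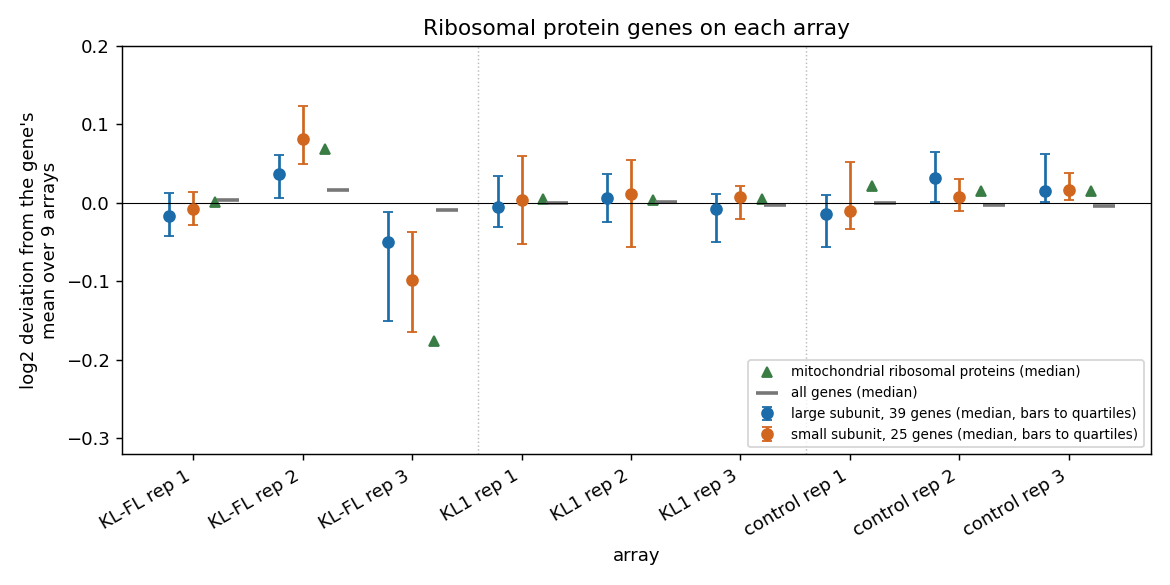
Median deviation, on the log2 scale, from each gene's 9-array mean, by array, for large and small subunit genes with their quartiles as bars, with mitochondrial ribosomal protein genes as triangles and the median of all genes. KL-FL replicate 2 is high (small subunit 0.081) and KL-FL replicate 3 is low (small subunit -0.099), while the small subunit medians of KL1 and control arrays lie near 0. The large subunit median of control replicate 2, at 0.031, is close to that of KL-FL replicate 2, at 0.037.

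The KL-FL arrays split gene by gene as well. On KL-FL replicate 2, 56 of 64 genes lay above their own 9-array mean, 25 of 25 in the small subunit and 31 of 39 in the large. On KL-FL replicate 3, 8 of 64 did, 1 of 25 in the small and 7 of 39 in the large subunit, and on KL-FL replicate 1, 24 of 64 did. The counts were 32, 39 and 30 of 64 on KL1 arrays and 29, 48 and 49 of 64 on control arrays. Replicate 2 minus replicate 3 of KL-FL had a median of 0.16 over the small subunit genes, from 0.017 for RPS3 to 0.42 for RPS9. Over the large subunit genes the median was 0.095, from -0.074 for RPL10L to 0.51 for RPL29, and 30 of 39 were above 0. Over all genes 62.2% were above 0, with a median of 0.035. With the TOP tract 32 of 38 members were above 0 (median 0.16), and without it 15 of 16 were (median 0.095).

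Which KL-FL array is left out sets the sign of the small subunit in KL-FL against control. Without KL-FL replicate 3 its median difference was 0.014 and that of the large subunit -0.0074, with 31 of 64 members lower, where 35.6% of all genes were. Without KL-FL replicate 2 both medians were -0.062, with 57 of 64 members lower, where 49.4% of all genes were. Markers of cell types also differed between the KL-FL arrays, not all in 1 direction. Of 8 epithelial markers, 5, 7 and 2 lay above their 9-array mean on KL-FL replicates 1 to 3, and their summed level, unlogged, ran from 4453 (replicate 3) to 5147 (replicate 2) in KL-FL, from 4867 to 5093 in KL1 and from 4962 to 5061 in control. Of 4 leukocyte markers, all at the dim end, 2, 3 and 0 lay above it on KL-FL replicates 1 to 3, with a summed level of 39.9 to 43.8 in KL-FL, 42.3 to 43.3 in KL1 and 41.6 to 42.5 in control. Of 7 fibroblast and endothelial markers, also dim, 2, 3 and 4 lay above it on KL-FL replicates 1 to 3, with a summed level of 134, 135 and 141 in KL-FL, 134 to 135 in KL1 and 130.4 to 133 in control, so that this list was highest on KL-FL replicate 3. The part of whatever moved these lists in the ribosomal protein values was not tested.

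**Figure D3:**
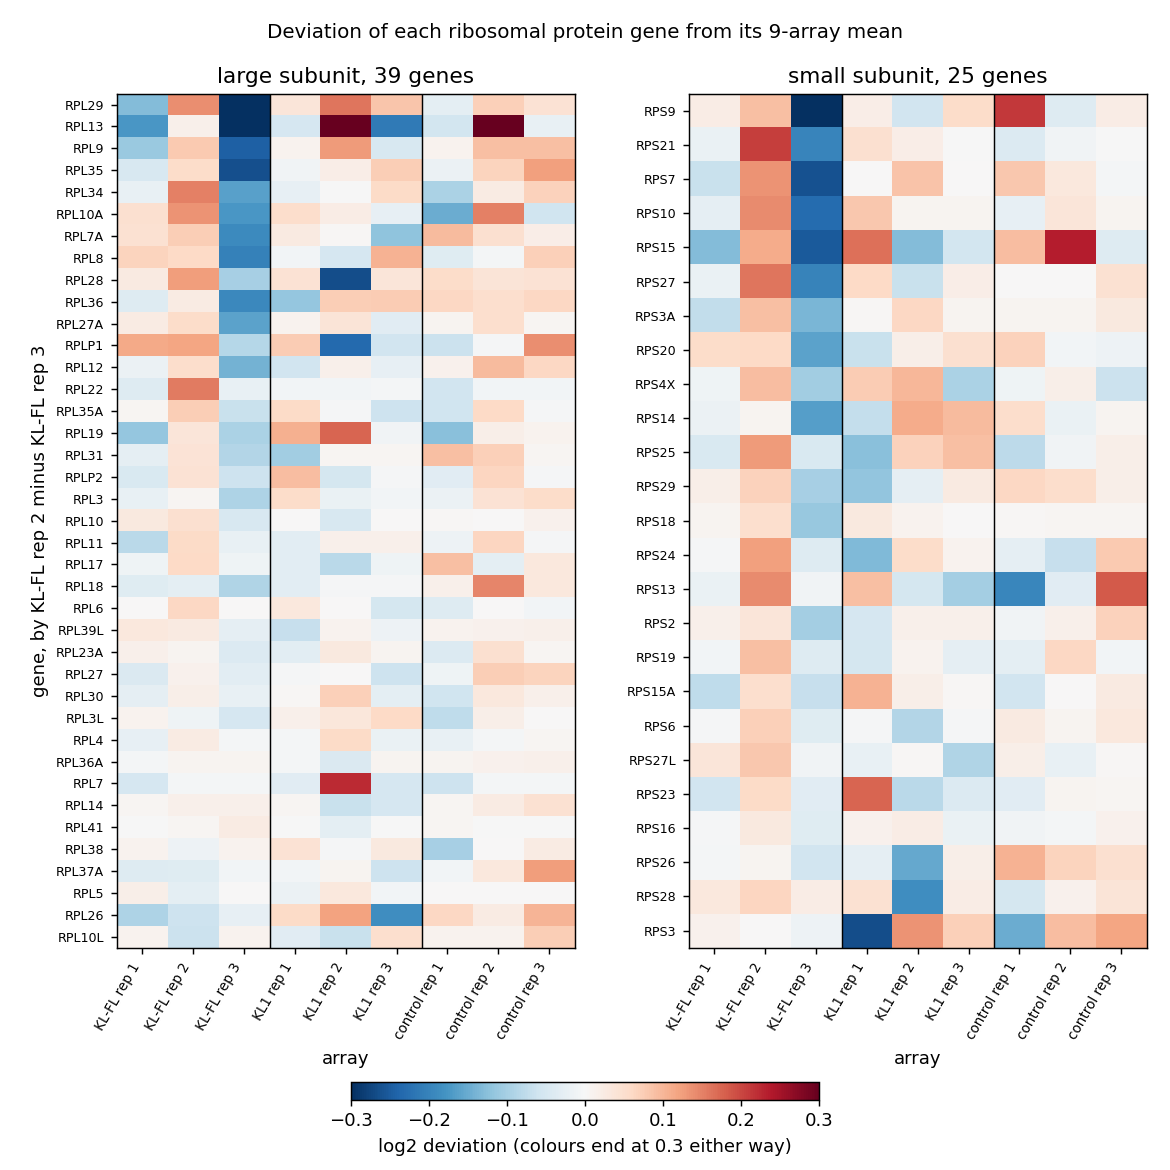
Deviation of each of the 64 genes (rows) from its own 9-array mean, on the log2 scale, on each array (columns), with rows sorted by KL-FL replicate 2 minus replicate 3. Most rows are high on KL-FL replicate 2 and low on KL-FL replicate 3, and RPL29 and RPS9, at 0.51 and 0.42, have the widest gaps between these arrays.

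The large subunit genes varied between replicates about as much as genes at large, and the small subunit genes more. The median within-group SD was 0.059 over large subunit genes, 0.085 over small subunit genes and 0.061 over all genes. It was lowest for RPL41 (0.013) and highest for RPL13 (0.27). Deviations from the group means moved together from gene to gene: the mean correlation between pairs of genes was 0.23 in the large and 0.41 in the small subunit, against 0.43 among mitochondrial ribosomal protein genes and 0.034 over all genes, as a description over 9 arrays that every pair shares. Without KL-FL replicate 3 these were 0.15, 0.20, 0.14 and 0.015.

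Among the large subunit genes, RPL18 had the smallest p in KL-FL against control. RPL18 read 11.47, 11.48 and 11.42 in KL-FL, 11.47, 11.50 and 11.50 in KL1, and 11.52, 11.65 and 11.54 in control. All klotho arrays lay below all control arrays, and control replicate 2 stood above the other control arrays. The log2 difference was -0.12 (SE 0.040, adjusted p = 0.688) for KL-FL and -0.077 (SE 0.040, adjusted p = 0.927) for KL1, neither past the limma test. RPL18 has 1 row on the array.

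RPL26, a protein near the exit of the peptide tunnel that is also known to bind p53 mRNA after DNA damage, read 9.65, 9.68 and 9.72 in KL-FL, against 9.81, 9.77 and 9.85 in control. These groups did not overlap, and the log2 difference was -0.12 (SE 0.071, adjusted p = 0.712). The KL1 arrays, at 9.80, 9.87 and 9.56, lay on both sides of control. RPL36 read 8.41, 8.47 and 8.25 in KL-FL, against 8.51, 8.50 and 8.51 in control, a log2 difference of -0.13 (SE 0.066, adjusted p = 0.709). For RPL36 the control arrays lay close together and the KL-FL arrays were spread below them.

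RPL13 had the most negative difference of KL-FL from control, at -0.29 (SE 0.18, adjusted p = 0.733), and also the widest spread. It read 9.10, 9.29 and 8.91 in KL-FL, 9.23, 9.71 and 9.07 in KL1, and 9.22, 9.71 and 9.26 in control. Replicate 2 was the highest array in every group, and the groups overlapped. The other 2 rows that name RPL13 gave -0.12 and -0.26. RPL9, whose protein lies near the stalk base, read 9.76, 9.95 and 9.62 in KL-FL, against 9.88, 9.96 and 9.96 in control, a log2 difference of -0.16 (SE 0.079, adjusted p = 0.704). The groups overlapped through KL-FL replicate 2. The 4 rows that name RPL9 gave differences from -0.15 to -0.16.

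RPL35 and RPL31 sit at the rim of the peptide exit tunnel, where nascent chains meet the factors that fold or target them. RPL35 read 10.48, 10.58 and 10.26 in KL-FL, against 10.51, 10.59 and 10.65 in control, a log2 difference of -0.14 (SE 0.075, adjusted p = 0.709). The arrays overlapped, and KL-FL replicate 3 was the lowest. RPL31 had log2 differences of -0.081 in KL-FL and -0.087 in KL1 (SE 0.046 each, adjusted p = 0.712 and 0.927). Of the 8 measured genes of the tunnel and its rim, 6 averaged lower in KL-FL and 5 in KL1, with 0 past the test. RPL37A, a zinc-binding protein, read 7.48, 7.48 and 7.51 in KL-FL, against 7.51, 7.55 and 7.64 in control, a log2 difference of -0.077 (SE 0.040, adjusted p = 0.709), and the arrays overlapped.

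RPL19, whose protein reaches across to the small subunit and lies by the tunnel exit, was the member with the largest positive value in KL1. It read 9.09, 9.24 and 9.11 in KL-FL, 9.31, 9.38 and 9.20 in KL1, and 9.08, 9.22 and 9.22 in control. The KL1 arrays overlapped those of both other groups. The log2 difference of KL1 from control was 0.12 (SE 0.063, adjusted p = 0.927). RPL14 had a log2 difference of -0.062 (SE 0.030, adjusted p = 0.927) in KL1 and -0.014 in KL-FL. RPL38, known in the mouse for its part in the translation of Hox mRNAs, had values of 0.026 in KL-FL and 0.048 in KL1, both with overlapping arrays. RPL22 and RPL6 had the smallest p among large subunit genes that averaged higher in KL-FL, with log2 differences of 0.057 (adjusted p = 0.782) and 0.036 (adjusted p = 0.785). RPL22 rested on KL-FL replicate 2, at 6.03 beside 5.84 and 5.85, and was -0.0059 without it.

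RPL5 and RPL11, which carry the 5S RNA into the large subunit and can bind MDM2, varied little in the rows used. RPL5 read 11.44, 11.39 and 11.42 in KL-FL, 11.41, 11.45 and 11.42 in KL1, and 11.42 on every control array. RPL11 read 9.80, 9.93 and 9.85 in KL-FL, 9.84, 9.89 and 9.89 in KL1, and 9.86, 9.94 and 9.87 in control. The groups overlapped for both genes, and their 4 log2 differences from control lay between -0.030 and 0.0004. The other row that names RPL5, nearly as bright, gave -0.037 in KL-FL and -0.13 in KL1 (SE 0.061 each).

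The acidic stalk proteins RPLP1 and RPLP2 recruit elongation factors. RPLP1 read 10.78, 10.78 and 10.58 in KL-FL, 10.74, 10.43 and 10.61 in KL1, and 10.60, 10.66 and 10.81 in control. RPLP2 read 10.93, 11.02 and 10.92 in KL-FL, 11.07, 10.93 and 10.98 in KL1, and 10.94, 11.04 and 10.98 in control. The groups overlapped for both. RPL12, at the stalk base, had log2 differences of -0.092 in KL-FL and -0.079 in KL1 (SE 0.050 each, adjusted p = 0.711 and 0.927).

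RPL3 and RPL10 line the region where peptide bonds form and tRNAs bind. RPL3 read 11.06, 11.08 and 10.98 in KL-FL, 11.13, 11.06 and 11.07 in KL1, and 11.06, 11.12 and 11.13 in control. RPL10 read 11.74, 11.76 and 11.67 in KL-FL, 11.71, 11.67 and 11.72 in KL1, and 11.72, 11.72 and 11.73 in control. The groups overlapped for both, with log2 differences in KL-FL of -0.063 for RPL3 and 0.0029 for RPL10. RPL41, a very short peptide that bridges the subunits, read 11.55, 11.56 and 11.58 in KL-FL, 11.55, 11.53 and 11.55 in KL1, and 11.56, 11.55 and 11.55 in control. Its arrays hardly differed in this row, its brightest. Over all rows that name RPL41 the differences of KL-FL from control ran from -0.12 to 0.067, the widest gap of any member.

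Among the small subunit genes, RPS26 had the smallest p in both comparisons with control. RPS26 protein lines the channel by which mRNA leaves the subunit, and its gene is among those mutated in Diamond-Blackfan anemia. RPS26 read 10.74, 10.76 and 10.69 in KL-FL, 10.72, 10.59 and 10.76 in KL1, and 10.85, 10.81 and 10.80 in control. All 6 klotho arrays lay below all 3 control arrays. The log2 difference was -0.13 (SE 0.046, adjusted p = 0.927) in KL1 and -0.091 (SE 0.046, adjusted p = 0.705) in KL-FL, neither past the test. The other row that names RPS26 alone gave -0.11 and -0.10. RPS26 has many processed pseudogenes, and 4 further rows name RPS26 together with RPS26P11.

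RPS15 and RPS9 had the most negative differences of the small subunit in KL-FL. RPS15, whose tail reaches toward the decoding site, read 10.06, 10.31 and 9.94 in KL-FL, 10.36, 10.06 and 10.14 in KL1, and 10.29, 10.43 and 10.16 in control. The groups overlapped, and the log2 difference of KL-FL was -0.19 (SE 0.11, adjusted p = 0.716). RPS9, one of the proteins that first bind the ribosomal RNA of the subunit, read 9.85, 9.92 and 9.50 in KL-FL, 9.85, 9.77 and 9.88 in KL1, and 10.04, 9.79 and 9.85 in control. The log2 difference of KL-FL was -0.14 (SE 0.11, adjusted p = 0.758), and -0.0094 without KL-FL replicate 3.

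**Figure D4:**
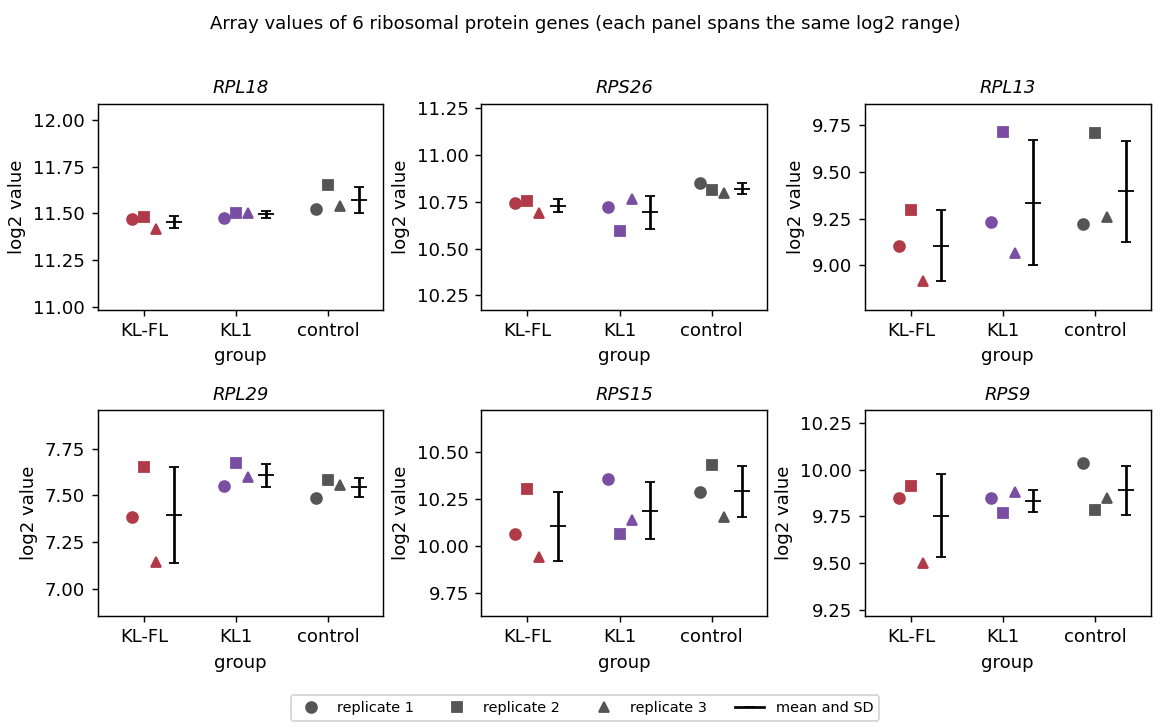
Log2 value on each array of RPL18, RPS26, RPL13, RPL29, RPS15 and RPS9, with the group mean and SD (n = 3 each). RPL18 and RPS26 have all KL-FL and KL1 arrays below the control arrays, while the KL-FL arrays of the other 4 genes are widely spread, RPL29 from 7.14 to 7.65.

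RPS21, RPS10 and RPS7 belong to the genes that varied most over the KL-FL arrays. RPS21, a protein of the solvent side, read 7.53, 7.76 and 7.35 in KL-FL, 7.59, 7.57 and 7.55 in KL1, and 7.51, 7.54 and 7.55 in control. RPS10, which is ubiquitylated when ribosomes collide, read 10.37, 10.54 and 10.17 in KL-FL, 10.48, 10.41 and 10.41 in KL1, and 10.38, 10.44 and 10.41 in control. For both genes the KL1 and control arrays lay between the extremes of the KL-FL arrays. RPS7 read 8.49, 8.69 and 8.30 in KL-FL, 8.56, 8.64 and 8.56 in KL1, and 8.64, 8.59 and 8.55 in control.

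RPS6, the subunit protein phosphorylated by S6 kinase below mTORC1, read 10.46, 10.53 and 10.43 in KL-FL, 10.46, 10.37 and 10.46 in KL1, and 10.49, 10.47 and 10.49 in control. The KL1 arrays lay below the control arrays and the KL-FL arrays overlapped them. The log2 difference of KL1 was -0.054 (SE 0.038, adjusted p = 0.927). RPS3, which guards the entry of the mRNA channel, read 11.21, 11.20 and 11.18 in KL-FL, 10.93, 11.33 and 11.27 in KL1, and 11.05, 11.29 and 11.32 in control. Replicate 1 was the lowest array in KL1 and in control, and the KL-FL arrays lay inside the range of both. RPS20 read 10.97, 10.98 and 10.76 in KL-FL, 10.85, 10.94 and 10.97 in KL1, and 10.99, 10.91 and 10.90 in control. RPS20 and RPS10 are both ubiquitylated at collided ribosomes, and the groups overlapped for both.

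RPS19, the gene most often mutated in Diamond-Blackfan anemia, read 10.08, 10.18 and 10.05 in KL-FL, 10.03, 10.10 and 10.06 in KL1, and 10.05, 10.15 and 10.08 in control. The groups overlapped. Of the 8 measured genes on the list for that anemia, 5 averaged lower in KL-FL and 6 in KL1, with 0 past the test. RPS29, a zinc-binding protein, had log2 differences of -0.083 in KL1 and -0.049 in KL-FL (SE 0.051 each). The small subunit genes with the smallest p among those that averaged higher were RPS27L, RPS28 and RPS13 in KL-FL and RPS15A, RPS4X and RPS25 in KL1. Their log2 differences were 0.037, 0.040 and 0.053 in KL-FL, and 0.052, 0.047 and 0.036 in KL1, with overlapping arrays and adjusted p from 0.796 to 0.962.

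Between KL-FL and KL1 the median log2 difference was -0.013 over the large and -0.014 over the small subunit genes, beside 0.0058 over all genes. Of the members 39 of 64 (60.9%) averaged lower in KL-FL, against 45.6% of all genes. Among genes above the 50th percentile of mean level, 41.6% averaged lower. With limma 0 of 64 passed, where 0% of all genes did, and the smallest adjusted p was 0.855. At an unadjusted p under 0.05, 1 member was lower (RPL19) and 0 were higher, against 1.55% and 3.49% of all genes. Without KL-FL replicate 2, 9 were lower (14.1%), against 3.84% of all genes, and without KL-FL replicate 3, 0 were lower and 1 was higher, against 1.28% and 4.96%. The lower count was 0 without KL-FL replicate 1, KL1 replicate 2, control replicate 2 or control replicate 3, against 1.23% to 1.38% of all genes. It was 2 (3.12%) without KL1 replicate 1 or 3, against 2.21% and 1.43% of all genes. The arrays did not overlap for 1 member, RPL3L, which was lower in KL-FL, against 2.21% of all genes, and 0 lay above, against 4.67%. Without KL-FL replicate 3, 24 of 64 averaged lower, where 36.6% of all genes did, and without KL-FL replicate 2, 46 of 64 did, where 53.2% of all genes did.

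RPL19 had a log2 difference between KL-FL and KL1 of -0.15 (SE 0.063, adjusted p = 0.855). RPL29, a small heparin-binding protein of the large subunit, read 7.38, 7.65 and 7.14 in KL-FL and 7.55, 7.67 and 7.60 in KL1, a log2 difference of -0.21 (SE 0.11, adjusted p = 0.855). The KL1 arrays lay together near the top of the KL-FL range. RPS14, whose loss is known from the myelodysplastic syndrome with a deletion on chromosome 5q, and RPS15A had log2 differences of -0.10 (SE 0.061) and -0.074 (SE 0.046). Higher in KL-FL on average were RPLP1 (0.12, SE 0.089), RPS28 (0.079, SE 0.059), RPS27L (0.073, SE 0.037) and RPL14 (0.049, SE 0.030), each with adjusted p = 0.855.

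Members that take the place of a standard protein in some tissues had log2 differences from control between -0.049 and 0.056. RPL3L, which replaces RPL3 in heart and skeletal muscle, read 4.61, 4.59 and 4.55 in KL-FL, 4.61, 4.63 and 4.66 in KL1, and 4.52, 4.61 and 4.60 in control. RPL10L, a testis form of RPL10, read 3.46, 3.38 and 3.46 in KL-FL, 3.41, 3.38 and 3.50 in KL1, and 3.46, 3.46 and 3.52 in control. RPL39L, also a testis form, read 2.92, 2.91 and 2.86 in KL-FL, 2.82, 2.90 and 2.87 in KL1, and 2.90 on every control array. All 3 lay in the lower part of the value range of the table, which runs from 1.79 to 12.4, and the table has no detection call.

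RPS27L, a p53 target in human cells, read 5.59, 5.63 and 5.54 in KL-FL, 5.53, 5.56 and 5.46 in KL1, and 5.57, 5.53 and 5.56 in control. Its paralog RPS27 read 10.52, 10.70 and 10.34 in KL-FL, 10.60, 10.47 and 10.56 in KL1, and 10.54, 10.54 and 10.59 in control. RPS27 spread widely over the KL-FL arrays. RPS27L varied less over the same arrays.

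Other genes of ribosome production were described in the same way. For all their counts against control, the share of all genes that averaged lower was 42.7% in KL-FL and 47.8% in KL1. Among genes above the 50th percentile of mean level it was 49.1% and 59.6%. Mitochondrial ribosomal proteins serve the separate ribosomes of mitochondria. Against control, 57 of 71 of their genes (80.3%) averaged lower in KL-FL (median -0.062) and 42 of 71 (59.2%) in KL1 (median -0.022), with 0 past the test. MRPS26 had a log2 difference of -0.11 (SE 0.030, adjusted p = 0.637) in KL-FL, and MRPL16 one of -0.21 (SE 0.079, adjusted p = 0.688). These genes moved with the same KL-FL arrays as the cytosolic ones: their median deviation was 0.00094, 0.068 and -0.18 on KL-FL replicates 1 to 3, and 67 of 71 read higher on replicate 2 than on replicate 3, with a median of 0.26.

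Of 16 measured translation factors and other genes listed from background knowledge as having TOP mRNAs, 9 averaged lower in KL-FL and 11 in KL1, with 0 past the test. By the definition used here, 10 of the 11 genes of that list with an annotated start held the tract. EEF1G, a subunit of the elongation factor that recharges eEF1A, had log2 differences of -0.099 in KL-FL and -0.14 in KL1 (SE 0.046 each, adjusted p = 0.700 and 0.927). Of 28 ribosome assembly factors, 14 averaged lower in KL-FL and 15 in KL1, with 0 past the test. NOP58, a core protein of the particles that methylate ribosomal RNA, read 9.41, 9.42 and 9.47 in KL-FL, 9.38, 9.36 and 9.34 in KL1, and 9.33, 9.32 and 9.28 in control. All KL-FL arrays lay above all control arrays, with a log2 difference of 0.12 (SE 0.030, adjusted p = 0.583). LTV1, an assembly factor of the small subunit, also had all KL-FL arrays above control, at 0.10 (SE 0.033, adjusted p = 0.688).

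Of 12 genes of the RNA polymerase I machinery, which transcribes ribosomal RNA, 5 averaged lower in KL-FL and 10 in KL1, with 0 past the test. POLR1D, shared by RNA polymerases I and III, had log2 differences of -0.13 in KL-FL and -0.15 in KL1 (SE 0.071 each, adjusted p = 0.712 and 0.927). Of the 71 mitochondrial, 16 TOP, 28 assembly and 12 polymerase genes, the assembly and polymerase lists had medians nearest to 0 in KL-FL, at -0.0039 and 0.0024.

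Several features of the array limit single values. Of the 64 members 31 have several rows, and the sign of the difference was not the same in all rows for 11 of them in KL-FL against control, 9 in KL1 against control and 13 in KL-FL against KL1. The widest gap between rows in KL1 against control was that of RPL4, from 0.0055 to 0.31. The value of 0.31 (SE 0.076) came from a dim row with a mean of 3.80, which the counts over members do not hold. Ribosomal protein genes have many processed pseudogenes, and a probe that matches such a copy cannot be told from 1 that reads the gene alone. The 31 include RPS18, whose 3 rows hold identical values, and RPL41, of whose 4 rows 2 are identical.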

How the data were processed

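Total RNA of 9 samples was labelled and read on a whole-transcript array, per the labels' protocols. The values deposited by the authors are on a log2 scale, in 1 table of 33297 rows, and the submitters' processing notes name Partek 6.6. How background was corrected and arrays normalized is not given in the sources used here. The base of the logarithm is read from the values' range. Rows were named through the platform annotation: 19181 named 1 gene and gave 17958 genes, with the brightest row of a gene standing for it. Arrays were grouped by title and fitted as 3 groups with limma 3.58.1 in R 4.3.3 (6 residual degrees of freedom). Contrasts were tested on both sides, and p-values were adjusted by Benjamini-Hochberg over the 17958 genes, with a threshold of 0.05. The test was checked on simulated data. Medians over members are descriptions with no test.

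Members, lists and tests were chosen with earlier results of these data known. The genes named are the 3 with the smallest p per subunit and direction in each comparison with control, the 2 between KL-FL and KL1, genes with known roles, and from each list of genes with a shared role the 2 with the smallest p in a comparison with control. RPL13, RPL26, RPL36, RPL36A and RPS21 were added after their values were seen. The labels give the same replicate numbers to each group. Deviations of same-numbered KL1 and control arrays correlated at 0.113 to 0.322, so these numbers may pair the arrays, while KL-FL pairs with control correlated at 0.0974 or less. Alternatives were scaling, row choice, array weights, a replicate block and leaving out each array in turn. The number of arrays limits the precision.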

Additional observations from a re-analysis of the deposited data

How the results depend on the processing

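The count of 0 ribosomal protein genes past the threshold held in each of the 3 comparisons under each alternative run, including array weights. With array weights the smallest adjusted p of a member was 0.075. At an unadjusted p under 0.05, 15 members (23.4%) were then lower in KL-FL than in control, against 7.55% of all genes. The weights of KL-FL replicates 1 to 3 were 6.76, 0.55 and 0.27, so the weighted KL-FL values rest mostly on replicate 1. The count over all genes was 1 in KL-FL against control, and it was 0 with every row tested, 0 with only the 6 arrays compared, 0 with the replicate block, 523 with array weights and 0 to 1 when an array was left out. In KL1 against control it was 1, and it was 0 with every row tested, 0 with the replicate block, 2 with array weights and 0 to 1 when an array was left out. Between KL-FL and KL1 it was 0, and 1 with array weights. The block changed no call among the members. Leaving out 1 array moved the large subunit median of KL-FL minus control from -0.062 (without KL-FL replicate 2) to -0.0074 (without KL-FL replicate 3), beside -0.027. It moved the small subunit median from -0.062 to 0.014, beside -0.021. Of the 64 members, 24 (without KL-FL replicate 3) to 46 (without KL-FL replicate 2) averaged lower in KL-FL than in KL1, beside 39. Over members with 1 row, paralogs left out, the large minus small subunit median of KL-FL minus control was -0.038, beside -0.0054. When 1 array was left out in turn, the sign turned at least once for 37 of 64 members in KL-FL against control, 31 in KL1 against control and 39 between KL-FL and KL1. Among the genes named for their smallest p it turned for 4 under the alternatives run. RPL22 in KL-FL was -0.0044 as the mean of its rows, -0.0030 with array weights and -0.0059 to 0.092 over arrays left out. RPL38 in KL-FL ran from -0.011 (without control replicate 1) to 0.051. RPS13 in KL-FL was -0.017 with array weights and ran from -0.037 (without control replicate 1) to 0.15. RPS25 in KL1 ran from -0.0032 (without KL1 replicate 3) to 0.10. The cause was not tested.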

Other observations

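A further 33 rows name a ribosomal protein gene together with another gene, often a small nucleolar RNA (snoRNA) that lies in an intron of its host gene, or a pseudogene. They are no members, and a row cannot say which of its genes it read. In KL-FL against control 25 of 33 averaged lower, against 40.8% of all rows, with a median log2 difference of -0.061. In KL1 against control 25 of 33 did, against 48% of all rows, with a median of -0.030. Most of the 33 rows lie in the brighter part of the table. Among genes above the 50th percentile of mean level, 49.1% averaged lower in KL-FL and 59.6% in KL1. Several of the 33 rows name the same genes, such as RPL21 with RPL21P28 or RPS26 with RPS26P11, so they are not separate readings. The row of SNORA64 and RPS2 had the most negative value in KL-FL. It read 6.88, 7.20 and 6.29 in KL-FL, 6.89, 6.97 and 7.13 in KL1, and 7.32, 7.25 and 7.28 in control, so that all 6 klotho arrays lay below all control arrays. The brightest of the 3 rows that name RPS2 alone read 11.21, 11.23 and 11.10 in KL-FL, 11.15, 11.21 and 11.21 in KL1, and 11.19, 11.21 and 11.27 in control. These groups overlapped. The log2 difference of KL-FL from control was -0.042 in that row, and -0.060 and -0.064 in the other rows that name RPS2 alone. The row of SNORD68 and RPL13 had the most negative value in KL1, and it rested on KL1 replicate 2, at 6.72 beside 7.80 and 7.87. Over the 33 rows, 29 read higher on KL-FL replicate 2 than on KL-FL replicate 3, against 62.2% of all genes, with a median of 0.15.

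RPL36AL, a copy of RPL36A whose symbol falls outside the rule, read 10.01, 10.00 and 9.93 in KL-FL, 9.78, 9.76 and 9.89 in KL1, and 9.95, 9.89 and 9.85 in control. The KL-FL arrays lay above the KL1 arrays, with a log2 difference of 0.17 (SE 0.045, adjusted p = 0.855), and the control arrays lay between, overlapping both. RPL36A itself read 9.69, 9.71 and 9.71 in KL-FL, 9.69, 9.65 and 9.71 in KL1, and 9.71 on every control array.

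RPL22L1, the paralog of RPL22, read 5.73, 5.85 and 5.54 in KL-FL, 5.61, 5.75 and 5.75 in KL1, and 5.84, 5.79 and 5.84 in control. The KL1 arrays lay below the control arrays, with a log2 difference of -0.12 (SE 0.073, adjusted p = 0.927).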
